A study of Mus musculus with 6 samples.

Results

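Interferon-stimulated genes are the genes that cells switch on when type I, II or III interferon binds its receptor. The 41 genes described here were chosen by name, as well known members of this group in mouse, and all 41 were found among the 23951 genes of the expression table. RNA sequencing was performed in 3 mouse melanoma lines with 2 libraries each. B16-F1 is a melanoma line of low metastatic potential and was bought from a cell repository. B16-F1R2, called the lymph node line below, came from a lymph node metastasis. B16-F1R2L, called the lung line, came from a lung metastasis that itself arose from a lymph node metastasis. B16-F1R2 was received from another laboratory, and the study's methods do not say which laboratory supplied B16-F1R2L. The line and where it came from therefore cannot be told apart. No line was treated, and all lines grew in the same serum-containing medium. It is not stated whether replicate libraries were grown as separate cultures, so the p-values measure only the spread between these libraries, which may be technical.

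Type I interferons bind IFNAR1 and IFNAR2, and the kinases JAK1 and TYK2 then phosphorylate STAT proteins. STAT2 and IRF9 are subunits of the factor ISGF3, which binds interferon-stimulated response elements in target promoters, while interferon gamma acts through GAS elements. The induced proteins include RNA sensors, enzymes that act on double-stranded RNA, membrane and nucleotide-metabolism proteins that block viruses, guanylate-binding GTPases and chemokines. In tumor cells, raised levels of such genes without infection are a known state of many lines.

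Expression was read as FPKM, fragments counted per length of transcript and per size of library, which can be compared between genes because it is scaled by length. To compare the lines, log2(FPKM + 0.1) was fitted in limma, a linear model that shares the estimate of the spread across genes, and a gene was called at an adjusted p under 0.05 over the 11379 genes with 2 or more libraries at 1 FPKM or above. The added 0.1 makes the changes of low genes look smaller than they are. The FPKM of a library summed to between 596657 and 672794, and the depth was estimated at 12430000 to 15060000 reads, at which 1 read was worth about 0.00923 to 0.105 FPKM in the members. Over the tested members, replicate libraries differed by a median log2 difference of 0.124 in B16-F1, 0.0976 in the lymph node line and 0.102 in the lung line. All 7 melanocyte markers were expressed, with summed FPKM of 14970 and 15007 in B16-F1 and 7909 to 8933 in the other lines. Of 9 leukocyte markers, Ptprc, Cd3e, Itgam, C1qa and Nkg7 were listed at 0 in all 6 libraries, and the summed FPKM of the list was 1.19 to 2.45 in B16-F1, 14.7 to 15.5 in the lymph node line and 20.2 to 20.3 in the lung line. Nearly all of that rise was Cd79a, a B cell receptor component, which stood at 12.4 to 17.1 FPKM in the metastatic lines. The macrophage gene Lyz2 did not pass 0.625 FPKM in B16-F1 and 2.05 in the metastatic lines, with log2 fold changes of 1.36 in the lymph node line and 2.07 in the lung line. The collagen gene Col1a2, the 1 fibroblast marker tested, stood at 0.635 and 0.742 FPKM in B16-F1 and at 1.04 to 2.17 in the metastatic lines. Lyz2 and Col1a2 were called higher in each metastatic line than in B16-F1, and Col1a2 also in the lung line against the lymph node line. Both were under 1 FPKM in B16-F1 and so could be tested only through the other lines. Cd68, another macrophage marker, stood at 1.02 and 1.76 FPKM in B16-F1 and 0.983 to 2.67 in the metastatic lines. Its libraries overlapped between the lines, and it was not called in any comparison. The endothelial marker Pecam1 was listed at 0 in B16-F1 and stood at 0.752 to 1.26 FPKM in the metastatic lines. Prox1, the other endothelial marker tested, went the other way. It stood at 1.66 and 1.63 FPKM in B16-F1 and 0.790 to 1.16 in the metastatic lines, and was called lower in both. Fibroblast markers summed to at most 2.31 FPKM with Dcn, Lum and Thy1 listed at 0, endothelial markers to at most 2.38 with Cdh5, Kdr and Lyve1 listed at 0, and keratinocyte markers to at most 0.06, and the part of other cells in the results below was not otherwise tested.

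Promoter sequence from RefSeq (build GRCm38.p6, 250 bases before to 50 after each start) was matched for 32 of the 41 members. Dhx58, Usp18, Rtp4, Parp9, Zbp1, Mx1, Mx2, Parp14 and Ifi27 were not matched. The core of the interferon-stimulated response element, which is GAAA, any 2 bases and GAAA on either strand, occurred in 13 of the 32 members (40.6%), against 936 of 27025 genes with a promoter (3.46%) and 2.98% of all 32851 promoters. The GAS element, TTCnnnGAA with n for any base, occurred in 7 of the 32 (21.9%), against 8.13% of genes and 7.02% of promoters. Of the members, 3 held both motifs, which overlapped in 1 of them. The stretches below are those of the 6 members with the response element core and the largest differences between lines in any comparison, shown because ISGF3 is known to act through this element. They are written 5′ to 3′ on the strand of the gene, and capitals mark every complete match in the stretch, which reads TTTC, any 2 bases and TTTC where it lies on the other strand.
Cxcl10 (chr5:92349073-92349122, minus strand): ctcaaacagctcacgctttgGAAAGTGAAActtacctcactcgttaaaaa
Ifit1 (chr19:34640784-34640833, plus strand): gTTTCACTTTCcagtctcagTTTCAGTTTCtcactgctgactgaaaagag
Isg15 (chr4:156200855-156200904, minus strand): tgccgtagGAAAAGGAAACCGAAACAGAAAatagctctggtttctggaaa
Ifit3 (chr19:34583387-34583436, plus strand): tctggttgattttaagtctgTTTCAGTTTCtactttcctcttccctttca
Oas1a (chr5:120907526-120907559, minus strand): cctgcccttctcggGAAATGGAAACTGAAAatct
Igtp (chr11:58199502-58199551, plus strand): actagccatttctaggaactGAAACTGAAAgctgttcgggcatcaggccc
The match nearest the start ended 4 bases before it in Oas1a, 24 in Igtp, 56 in Isg15, 75 in Ifit1, 112 in Ifit3 and 203 in Cxcl10. Isg15 held 3 matches that overlap in 1 run, and Oas1a 2 that overlap. The other members with the core were Stat2, Rsad2, Bst2, Ifitm2, Gbp2, Gbp3 and Irgm1. A match describes the letters in this window and is not a measured binding site.

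Most of the tested genes were higher in both metastatic lines than in B16-F1, and 19 of 37 were higher in the lung line than in the lymph node line. Of the 41 members, 37 were tested, and Zbp1, Oasl2, Ifitm1 and Ifi44 stayed below the filter. In the lymph node line against B16-F1, 29 of 37 members were higher, where 28.2% of all tested genes were, and 3 were lower, where 27.2% of all genes were. The median log2 fold change of the members was 0.79, and that of all tested genes was 0.0046. With a minimum log2 fold change of 1 as well, 17 members were higher (7.2% of all genes). Without overlap between the libraries, 31 members were higher (40.3% of all genes) and 3 lower (39.7%). The 3 lower members were Irf1, Gbp2 and Ifitm2, and the 5 that were not called were Cmpk2, Eif2ak2, Ifitm3, Parp14 and Stat2. The filter itself bears on this count: Irf7, Oasl1, Mx1, Mx2, Igtp and Rtp4 stayed under 1 FPKM in both B16-F1 libraries and so could only pass through the other lines, and Gbp3 and Xaf1 reached 1 FPKM in 1 B16-F1 library and needed another line to pass. Of the 29 members at 1 FPKM or above in both B16-F1 libraries, 21 were higher and 3 lower, with a median of 0.60, and of the 10465 genes at that level 24.6% were higher and 29.6% lower. With no filter, 28 of all 41 members were higher (21.3% of all genes) and 3 lower (19.3%).

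In the lung line against B16-F1, 33 members were higher (29.5% of all genes) and the same 3 were lower (27.1%), of which Ifitm2 turned to 0.01 after quantile normalization, which gives every library the same distribution of values, with a median log2 fold change of 1.21 against 0.017 over all genes. With that minimum fold change, 23 were higher (8.41% of all genes). Libraries did not overlap in 34 higher (41.7%) and 3 lower members (39.1%). The count of lower members was 1 without either B16-F1 library or B16-F1R2L replicate 2. Of the 29 members at 1 FPKM or above in both B16-F1 libraries, 25 were higher and 3 lower, with a median of 1.01, where 25.5% and 29.5% of the 10465 genes at that level were. Samhd1 was the member not called, with a log2 fold change of 0.18 (SE 0.06, adjusted p = 0.055 in limma). With no filter, 34 of 41 members were higher (23.2%) and 2 lower (19%). This comparison and the one before it share the B16-F1 libraries.

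In the lung line against the lymph node line, 19 members were higher (12.1% of all genes) and 2, Cxcl10 and Ifit1, were lower (10.5%), with a median log2 fold change of 0.40 against 0.022 over all genes. The differences were small, and the 1 member past a minimum log2 fold change of 1, Cxcl10, was lower (0.211% of all genes). With no filter, 13 of 41 members were higher (5.6%) and 1 was lower (4.51%). Libraries did not overlap in 29 higher (35.9%) and 3 lower members (29.2%). The count of higher members was 6 without B16-F1R2 replicate 1, 10 without B16-F1R2 replicate 2 and 4 without B16-F1R2L replicate 2. The count of higher genes over the whole table fell in the same fits, from 1378 to 317, 654 and 362. The count of lower members was 1 without either B16-F1R2 library or B16-F1R2L replicate 1. Bst2, Ifi27, Ifitm3 and Isg15 were the 4 higher members that kept their call with each library left out in turn. In 25 of the 37 tested members (67.6%), both B16-F1R2 libraries lay above both B16-F1 libraries and below both B16-F1R2L libraries, a pattern found in 1376 of the 11379 tested genes (12.1%). Of the 29 members at 1 FPKM or above in both B16-F1 libraries, 19 had it (65.5%), against 9.59% of all genes at that level. By mean FPKM, 30 members were ordered B16-F1, the lymph node line, the lung line from low to high, as were 23.9% of all tested genes. Cxcl10, Ifit1, Oasl1 and Samhd1 were highest in the lymph node line, and Irf1, Gbp2 and Ifitm2 were highest in B16-F1.

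**Figure D1:**
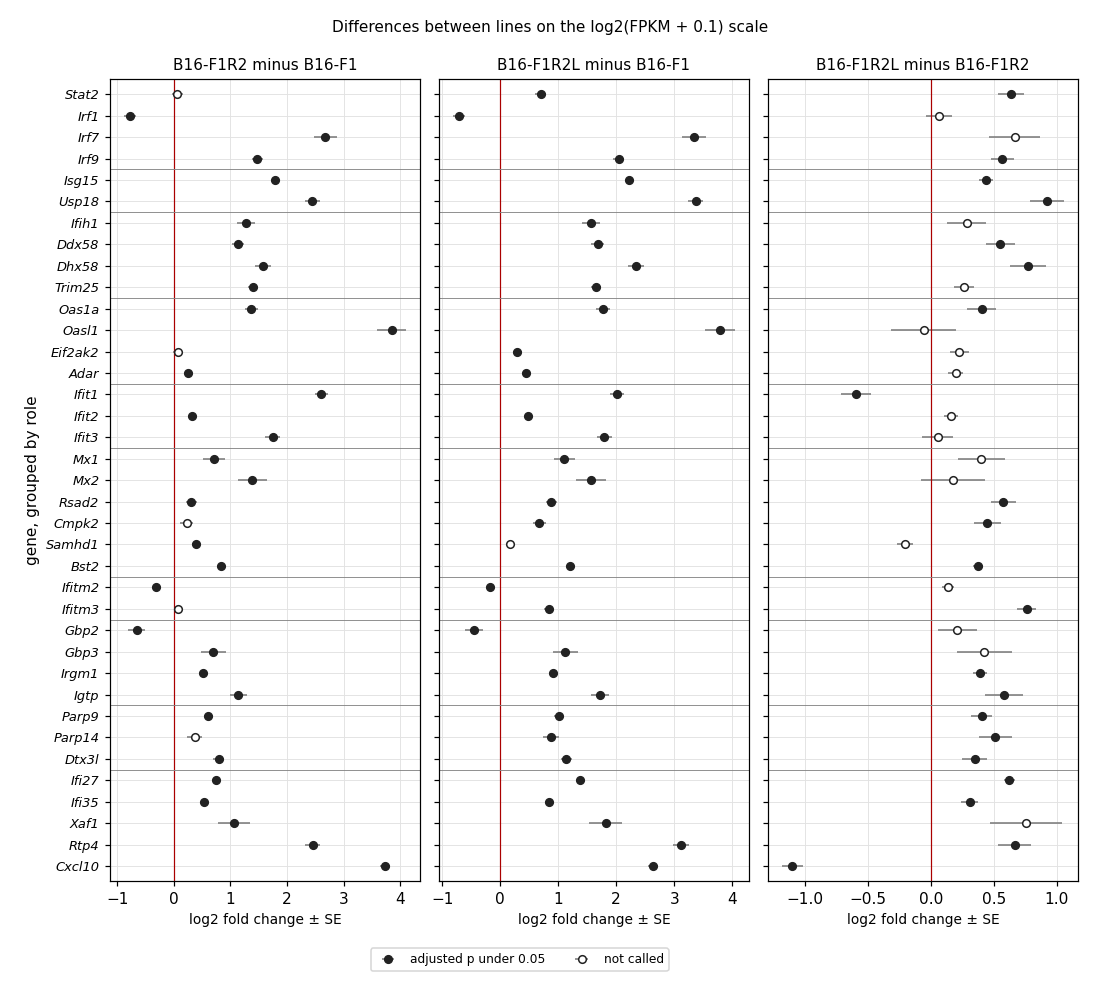
Log2 fold change with its standard error (horizontal axis, log2(FPKM + 0.1) scale, with a range of its own in each panel) of the 37 tested interferon-stimulated genes (vertical axis, grouped by role) in the 3 comparisons. Filled points passed an adjusted p under 0.05 in limma. Higher members number 29, 33 and 19 from left to right, and Irf1, Gbp2 and Ifitm2 lie left of 0 against B16-F1, where Ifitm2 in the lung line turned to 0.01 after quantile normalization.

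Cxcl10 encodes a chemokine that draws T cells and NK cells through the receptor CXCR3. It stood at 8.01 and 8.37 FPKM in B16-F1, 107 and 113 in the lymph node line, and 55.9 and 47.1 in the lung line. The 3 lines did not overlap, and the lymph node line was the highest. The log2 fold change was 3.73 in the lymph node line (SE 0.08, adjusted p = 9.7e-07 in limma) and 2.63 in the lung line (SE 0.08, adjusted p = 3.1e-06), both against B16-F1. The lung line was lower than the lymph node line, with a log2 fold change of -1.10 (SE 0.08, adjusted p = 0.0018 in limma), and under the alternatives this value stayed between -1.22 and -0.97. It ranked 58 from the lowest of all tested genes in that comparison. On mm9, Cxcl10 lies on the minus strand of chromosome 5 from 92775664 to 92777915, and its exons overlap those of Art3 on the opposite strand.

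Of the 4 regulators of the response, Irf7 and Irf9 were higher, Irf1 was lower and Stat2 was not called in the lymph node line against B16-F1. Irf7 encodes the factor that amplifies type I interferon production. Its FPKM were 0.571 and 0.804 in B16-F1, 5.33 and 4.44 in the lymph node line, and 6.75 and 8.97 in the lung line. The log2 fold change against B16-F1 was 2.67 in the lymph node line (SE 0.20, adjusted p = 1.0e-04 in limma) and 3.34 in the lung line (SE 0.20, adjusted p = 4.1e-05). Between the metastatic lines the libraries did not overlap, but the log2 fold change of 0.67 was not called (SE 0.20, adjusted p = 0.061 in limma).

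Irf9, the DNA-binding subunit of ISGF3, stood at 4.85 and 5.20 FPKM in B16-F1, 15.3 and 13.1 in the lymph node line, and 20.3 and 21.7 in the lung line. The lines were separate and in that order. It rose by a log2 fold change of 1.48 in the lymph node line (SE 0.09, adjusted p = 4.5e-05 in limma) and 2.04 in the lung line (SE 0.09, adjusted p = 1.1e-05) against B16-F1, and by 0.57 between the metastatic lines (SE 0.09, adjusted p = 0.011). Exons of Irf9 overlap those of Rnf31 on the same strand, so some of its reads may belong to that gene. Stat2, which encodes another subunit of ISGF3, stood at 2.89 and 3.15 FPKM in B16-F1, 3.01 and 3.30 in the lymph node line, and 4.88 and 5.02 in the lung line. B16-F1 and the lymph node line overlapped, and the log2 fold change of 0.06 between them was not called (95% interval -0.18 to 0.30) and turned to -0.13 after quantile normalization. Stat2 was higher in the lung line than in the lymph node line by a log2 fold change of 0.64 (SE 0.10, adjusted p = 0.011 in limma).

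Irf1, a factor induced mainly by interferon gamma, went the other way. It stood at 8.00 and 7.39 FPKM in B16-F1, 4.49 and 4.39 in the lymph node line, and 4.30 and 5.03 in the lung line. B16-F1 was above both metastatic lines, which overlapped. The log2 fold change was -0.78 in the lymph node line (SE 0.10, adjusted p = 9.9e-04 in limma) and -0.71 in the lung line (SE 0.10, adjusted p = 0.0014), and both calls held under every alternative that kept the same threshold and set no minimum fold change.

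The ISG15 system rose as a pair. Isg15 encodes a ubiquitin-like protein that is joined to other proteins, and stood at 9.26 and 9.81 FPKM in B16-F1, 34.1 and 32.3 in the lymph node line, and 44.2 and 45.7 in the lung line. Against B16-F1, the log2 fold change of Isg15 was 1.79 in the lymph node line (SE 0.06, adjusted p = 2.8e-06 in limma) and 2.23 in the lung line (SE 0.06, adjusted p = 1.4e-06), and the metastatic lines differed by 0.44 (SE 0.06, adjusted p = 0.0067). Usp18 encodes the protease that removes ISG15 and also restrains signalling at IFNAR2. It stood at 1.25 and 1.56 FPKM in B16-F1, 7.63 and 8.51 in the lymph node line, and 14.2 and 16.6 in the lung line. The 3 lines were separate for both genes, lowest in B16-F1 and highest in the lung line, as in 12.1% of all tested genes. Usp18 rose by a log2 fold change of 2.45 in the lymph node line (SE 0.13, adjusted p = 2.8e-05 in limma) and 3.37 in the lung line (SE 0.13, adjusted p = 7.0e-06). Its difference of 0.92 between the metastatic lines was the largest rise among the members there (SE 0.13, adjusted p = 0.0088 in limma), and the call was lost without B16-F1R2 replicate 1 or B16-F1R2L replicate 2, with an adjusted p of at most 0.062.

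All 4 tested RNA sensors and partners rose against B16-F1 in both metastatic lines, where 28.2% and 29.5% of all tested genes were called higher. Ddx58 encodes RIG-I, a sensor of RNA with 5′ triphosphates, and stood at 3.98 and 3.32 FPKM in B16-F1, 7.69 and 8.49 in the lymph node line, and 11.3 and 12.5 in the lung line. It rose by a log2 fold change of 1.13 in the lymph node line (SE 0.11, adjusted p = 3.0e-04 in limma) and 1.69 in the lung line (SE 0.11, adjusted p = 5.8e-05). Ifih1 encodes MDA5, which senses long double-stranded RNA, and stood at 1.47 and 1.16, 3.19 and 3.42, and 3.69 and 4.45 FPKM in the same order of lines. It rose by 1.28 (SE 0.15, adjusted p = 7.4e-04 in limma) and 1.56 (SE 0.15, adjusted p = 3.1e-04) on the log2 scale. Dhx58 encodes LGP2, a relative of both sensors, and at the added 0.1 it rose most of this group. It stood at 1.25 and 1.20 FPKM in B16-F1, 4.29 and 3.39 in the lymph node line, and 6.15 and 7.07 in the lung line. Its log2 fold change was 1.57 in the lymph node line (SE 0.14, adjusted p = 2.1e-04 in limma) and 2.34 in the lung line (SE 0.14, adjusted p = 4.0e-05), with 0.77 between the metastatic lines (SE 0.14, adjusted p = 0.016). Trim25, the ubiquitin ligase known for its action on RIG-I, stood at 7.15 and 6.25 FPKM in B16-F1, 17.0 and 18.4 in the lymph node line, and 21.0 and 21.5 in the lung line. It rose by 1.39 (SE 0.08, adjusted p = 3.6e-05 in limma) and 1.65 (SE 0.08, adjusted p = 1.7e-05) on the log2 scale. With 1 added instead of 0.1, Trim25 rose by 1.28 in the lymph node line, above the 1.12 of Dhx58. For all of these 4 genes the lines did not overlap and rose from B16-F1 to the lung line, a pattern of 12.1% of all tested genes. Zbp1, a sensor of Z-form nucleic acid, was below the filter with at most 1.34 FPKM, and was listed at 0 in 1 B16-F1 library.

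The group of enzymes that act on double-stranded RNA and their relatives split into members that rose several-fold and members that changed little. Oasl1 encodes an OAS-like protein known in mouse to restrain the translation of Irf7. It stood at 0.128 and 0.0447 FPKM in B16-F1, which is a few reads, and at 2.76 and 2.28 in the lymph node line and 2.37 and 2.46 in the lung line. Its log2 fold change at the added 0.1 was the largest of all members, at 3.84 in the lymph node line (SE 0.26, adjusted p = 6.2e-05 in limma) and 3.79 in the lung line (SE 0.26, adjusted p = 6.4e-05). As the B16-F1 level is near that of single reads, the size depended on the scale and ran from 1.69 to 4.86 in the lymph node line across the alternatives, while the call held in each. With 1 added instead it was 1.69, below the 3.59 of Cxcl10. The metastatic lines overlapped. Oas1a encodes a synthase of 2′-5′ oligoadenylates, which activate RNase L. It stood at 3.22 and 2.56 FPKM in B16-F1, 7.73 and 7.41 in the lymph node line, and 9.84 and 10.3 in the lung line. Its log2 fold changes against B16-F1 were 1.37 (SE 0.11, adjusted p = 1.6e-04 in limma) and 1.77 (SE 0.11, adjusted p = 5.3e-05). Of the 50-base stretches of its transcripts, 53.0% also occur in Oas1b or Oas1g, so how its reads were shared out is uncertain.

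Adar, the enzyme that turns adenosine into inosine in double-stranded RNA, stood at 9.34 and 9.41 FPKM in B16-F1, 10.8 and 11.6 in the lymph node line, and 12.9 and 12.8 in the lung line. The lines were separate, with log2 fold changes of 0.25 and 0.45 against B16-F1, and the call in the lymph node line was lost without either B16-F1 library or B16-F1R2 replicate 2 (adjusted p up to 0.069 in limma). Eif2ak2 encodes PKR, the kinase that halts translation. It stood at 10.6 and 9.86 FPKM in B16-F1, 10.4 and 11.1 in the lymph node line, and 12.0 and 13.2 in the lung line. B16-F1 and the lymph node line overlapped (log2 fold change 0.07, 95% interval -0.12 to 0.26), and the lung line was higher than B16-F1 by 0.30, a call that was lost without B16-F1 replicate 2 or B16-F1R2L replicate 2. Oasl2 was below the filter, at 0.154 and 0.183 FPKM in B16-F1, 0.822 and 0.877 in the lymph node line, and 0.749 and 0.729 in the lung line. With no filter it was called higher in the lymph node line by a log2 fold change of 1.82 (SE 0.16, adjusted p = 0.0011 in limma).

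The IFIT proteins bind foreign RNA and block its translation. Ifit1 stood at 1.63 and 1.41 FPKM in B16-F1, 9.67 and 9.82 in the lymph node line, and 5.83 and 7.09 in the lung line. It had the same order of lines as Cxcl10, with the lymph node line highest and no overlap. The log2 fold change was 2.61 in the lymph node line (SE 0.12, adjusted p = 1.5e-05 in limma) and 2.01 in the lung line (SE 0.12, adjusted p = 4.0e-05) against B16-F1. The fall of -0.59 from the lymph node line to the lung line (SE 0.12, adjusted p = 0.022 in limma) was not called with no filter, after rescaling every library to the same FPKM sum, or without either B16-F1R2 library or B16-F1R2L replicate 1 (adjusted p up to 0.098). Ifit3 stood at 1.76 and 2.22 FPKM in B16-F1, 7.19 and 6.53 in the lymph node line, and 6.92 and 7.33 in the lung line, and the metastatic lines overlapped. Against B16-F1 its log2 fold change was 1.74 (SE 0.13, adjusted p = 8.4e-05 in limma) and 1.80 (SE 0.13, adjusted p = 7.3e-05). A near copy of Ifit3, listed as I830012O16Rik, shares 51.5% of its 50-base stretches, so its level is uncertain. Ifit2 was already high in B16-F1 and moved little, from 15.1 and 15.0 FPKM in B16-F1 up to 18.6 and 19.1 in the lymph node line and 20.3 and 21.8 in the lung line, a log2 fold change of 0.32 and 0.48 against B16-F1. The 3 genes lie on chromosome 19 of mm9, from 34625184 to 34724499.

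Other antiviral effectors covered a wide range of levels. Bst2 encodes tetherin, which holds budding virus at the cell surface, and had the highest FPKM of this group, at 78.3 and 79.3 in B16-F1, 143 and 138 in the lymph node line, and 185 and 179 in the lung line. It rose by a log2 fold change of 0.83 (SE 0.04, adjusted p = 1.9e-05 in limma) and 1.21 (SE 0.04, adjusted p = 4.2e-06) against B16-F1, and by 0.37 between the metastatic lines (SE 0.04, adjusted p = 0.0046). Rsad2 encodes viperin, which makes a chain-terminating nucleotide from CTP, and its neighbour Cmpk2 encodes a mitochondrial nucleotide kinase. Rsad2 stood at 4.82 and 4.96 FPKM in B16-F1, 5.87 and 6.28 in the lymph node line, and 8.40 and 9.86 in the lung line. Cmpk2 stood at 3.50 and 3.08, 3.59 and 4.13, and 5.30 and 5.28 FPKM in the same order. Both genes, which lie on chromosome 12 of mm9 from 27127618 to 27164700, were highest in the lung line without overlap, with log2 fold changes of 0.58 and 0.45 over the lymph node line. Against B16-F1, the value in the lymph node line was 0.31 for Rsad2 (adjusted p = 0.035 in limma) and 0.22 for Cmpk2 (adjusted p = 0.13). The call of Rsad2 was lost without either library of B16-F1 or of the lymph node line, with no filter, after rescaling and after quantile normalization (adjusted p up to 0.15 in limma).

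Mx1 and Mx2 encode dynamin-like GTPases that trap viral components. Mx1 stood at 0.818 and 0.639 FPKM in B16-F1, 1.13 and 1.37 in the lymph node line, and 1.68 and 1.67 in the lung line. Mx2 stood at 0.492 and 0.287 in B16-F1, 1.08 and 1.23 in the lymph node line, and 1.40 and 1.22 in the lung line. The metastatic lines did not overlap for Mx1 and overlapped for Mx2. Mx1 had a log2 fold change of 0.71 (SE 0.19, adjusted p = 0.019 in limma) in the lymph node line and 1.11 (SE 0.19, adjusted p = 0.0031) in the lung line. Mx2 had 1.39 (SE 0.26, adjusted p = 0.0043 in limma) and 1.56 (SE 0.26, adjusted p = 0.0026), the largest of this group against B16-F1. The values of these low genes rested on the scale. After quantile normalization the value in the lymph node line was 0.02 for Mx1 and 0.29 for Mx2, and in the lung line it was 0.30 and 0.21, below the 0.89 and 1.35 of Bst2. None of these 4 Mx values was called (adjusted p of 0.23 or more in limma). In the lymph node line Mx1 also lost its call without B16-F1 replicate 2 or B16-F1R2 replicate 2. Samhd1, which degrades nucleotides needed by viruses, stood at 16.9 and 15.6 FPKM in B16-F1, 20.7 and 21.7 in the lymph node line, and 17.8 and 18.9 in the lung line, and rose by a log2 fold change of 0.38 in the lymph node line (SE 0.06, adjusted p = 0.0029 in limma).

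The IFITM proteins hinder the fusion of virus with cell membranes. Ifitm2 had the highest FPKM of all members and fell, from 262 and 269 in B16-F1 to 220 and 206 in the lymph node line and 236 and 231 in the lung line. The log2 fold change was -0.32 in the lymph node line (SE 0.05, adjusted p = 0.0018 in limma) and -0.18 in the lung line (SE 0.05, adjusted p = 0.017), where the latter turned to 0.01 after quantile normalization and was not called after rescaling or without either B16-F1 library or B16-F1R2L replicate 2. Ifitm3 stood at 77.7 and 79.5 FPKM in B16-F1, 76.7 and 89.2 in the lymph node line, and 145 and 136 in the lung line. B16-F1 and the lymph node line overlapped, and the lung line stood apart from both, by a log2 fold change of 0.83 over B16-F1 (SE 0.08, adjusted p = 2.3e-04 in limma) and 0.76 over the lymph node line (SE 0.08, adjusted p = 0.0038). Ifitm1 was listed at 0 in 5 libraries and at 0.166 FPKM in 1 of B16-F1. The 3 genes lie on chromosome 7 of mm9 from 148140736 to 148196669, and Ifitm2 shares 11.1% and Ifitm3 10.0% of their 50-base stretches with relatives.

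Among the interferon-induced GTPases, which act against microbes inside the cell, Irgm1 stood at 11.0 and 11.5 FPKM in B16-F1, 16.4 and 15.9 in the lymph node line, and 20.7 and 21.8 in the lung line, log2 fold changes of 0.52 and 0.91 against B16-F1. Igtp, also known as Irgm3, stood at 0.795 and 0.716 FPKM in B16-F1, 1.63 and 1.96 in the lymph node line, and 2.71 and 2.74 in the lung line. Both genes were separate between all 3 lines, in rising order, as were 12.1% of all tested genes. Igtp rose by a log2 fold change of 1.14 (SE 0.15, adjusted p = 0.0011 in limma) and 1.72 (SE 0.15, adjusted p = 1.9e-04) against B16-F1, the largest of the group, and by 0.58 between the metastatic lines (SE 0.15, adjusted p = 0.041). In the lymph node line against B16-F1 its value ran down to 0.60 across the alternatives. The call between the metastatic lines was lost with any of the 6 libraries left out. It was also lost with no filter, after quantile normalization and with a replicate block. Igtp shares 9.64% of its 50-base stretches with Irgm2.

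Gbp2 and Gbp3 lie on chromosome 3 of mm9, from 142223016 to 142300972, and went opposite ways. Gbp2 stood at 2.51 and 2.21 FPKM in B16-F1, 1.57 and 1.34 in the lymph node line, and 1.85 and 1.56 in the lung line. B16-F1 was above both other lines. Its log2 fold change was -0.66 in the lymph node line (SE 0.16, adjusted p = 0.012 in limma), which was not called without B16-F1 replicate 1 or B16-F1R2 replicate 2 (adjusted p up to 0.070). The value of -0.45 in the lung line (adjusted p = 0.047 in limma) lost its call with any of the 6 libraries left out. Gbp3 stood at 1.12 and 0.759 FPKM in B16-F1, 1.55 and 1.57 in the lymph node line, and 1.87 and 2.42 in the lung line. It rose by a log2 fold change of 0.70 in the lymph node line (SE 0.22, adjusted p = 0.033 in limma) and 1.12 in the lung line (SE 0.22, adjusted p = 0.0053). The call in the lymph node line was lost without B16-F1 replicate 2 or either B16-F1R2 library, with no filter, and after quantile normalization, where the value was 0.22 (adjusted p = 0.38 in limma). The call in the lung line was lost after quantile normalization too, where the value was 0.46 (adjusted p = 0.088 in limma).

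Parp9 and Dtx3l encode partners that form an ADP-ribosylating ubiquitin ligase, and Parp14 a related enzyme. The 3 genes lie on chromosome 16 of mm9 from 35832960 to 35972691, and exons of Parp9 and Dtx3l overlap on opposite strands. Parp9 stood at 5.06 and 4.82 FPKM in B16-F1, 7.23 and 7.92 in the lymph node line, and 9.73 and 10.4 in the lung line. Dtx3l stood at 1.98 and 1.83, 3.36 and 3.37, and 4.23 and 4.40 FPKM in the same order of lines, and Parp14 at 1.64 and 1.44, 1.92 and 2.10, and 2.78 and 3.04. All 3 were separate between the lines, lowest in B16-F1 and highest in the lung line, a pattern found in 12.1% of all tested genes. The log2 fold changes in the lymph node line were 0.60 for Parp9, 0.79 for Dtx3l (SE 0.10, adjusted p = 8.4e-04 in limma) and 0.37 for Parp14, which missed the threshold (adjusted p = 0.053). In the lung line they were 1.01 for Parp9 (SE 0.08, adjusted p = 1.2e-04 in limma), 1.14 for Dtx3l (SE 0.10, adjusted p = 1.8e-04) and 0.88 for Parp14.

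Of the remaining members, Rtp4, a chaperone of cell surface receptors, stood at 0.970 and 0.840 FPKM in B16-F1, 5.29 and 5.47 in the lymph node line, and 7.77 and 9.52 in the lung line. It rose by a log2 fold change of 2.45 (SE 0.13, adjusted p = 2.6e-05 in limma) and 3.12 (SE 0.13, adjusted p = 8.9e-06) against B16-F1, and by 0.67 between the metastatic lines (SE 0.13, adjusted p = 0.019). Xaf1, which counters an inhibitor of apoptosis, stood at 1.36 and 0.703 FPKM in B16-F1, 2.11 and 2.22 in the lymph node line, and 3.30 and 4.22 in the lung line, and its B16-F1 libraries differed most of all tested members within a line, by 0.865 on the log2 scale. Its log2 fold change was 1.07 in the lymph node line (SE 0.29, adjusted p = 0.019 in limma) and 1.82 in the lung line (SE 0.29, adjusted p = 0.0022), and the former was not called without either B16-F1R2 library or after quantile normalization, where it was 0.61. Ifi27 encodes a mitochondrial and nuclear membrane protein and stood at 69.2 and 69.8 FPKM in B16-F1, 114 and 120 in the lymph node line, and 180 and 181 in the lung line. Its libraries were close within each line, and it rose by a log2 fold change of 0.75 in the lymph node line, 1.38 in the lung line (SE 0.04, adjusted p = 2.6e-06 in limma) and 0.62 between these lines (SE 0.04, adjusted p = 0.0012). Ifi35 stood at 12.7 and 11.9 FPKM in B16-F1, 18.4 and 17.4 in the lymph node line, and 23.1 and 21.5 in the lung line, with log2 fold changes of 0.54 and 0.85 against B16-F1. Ifi44 did not pass 0.140 FPKM in any library.

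**Figure D2:**
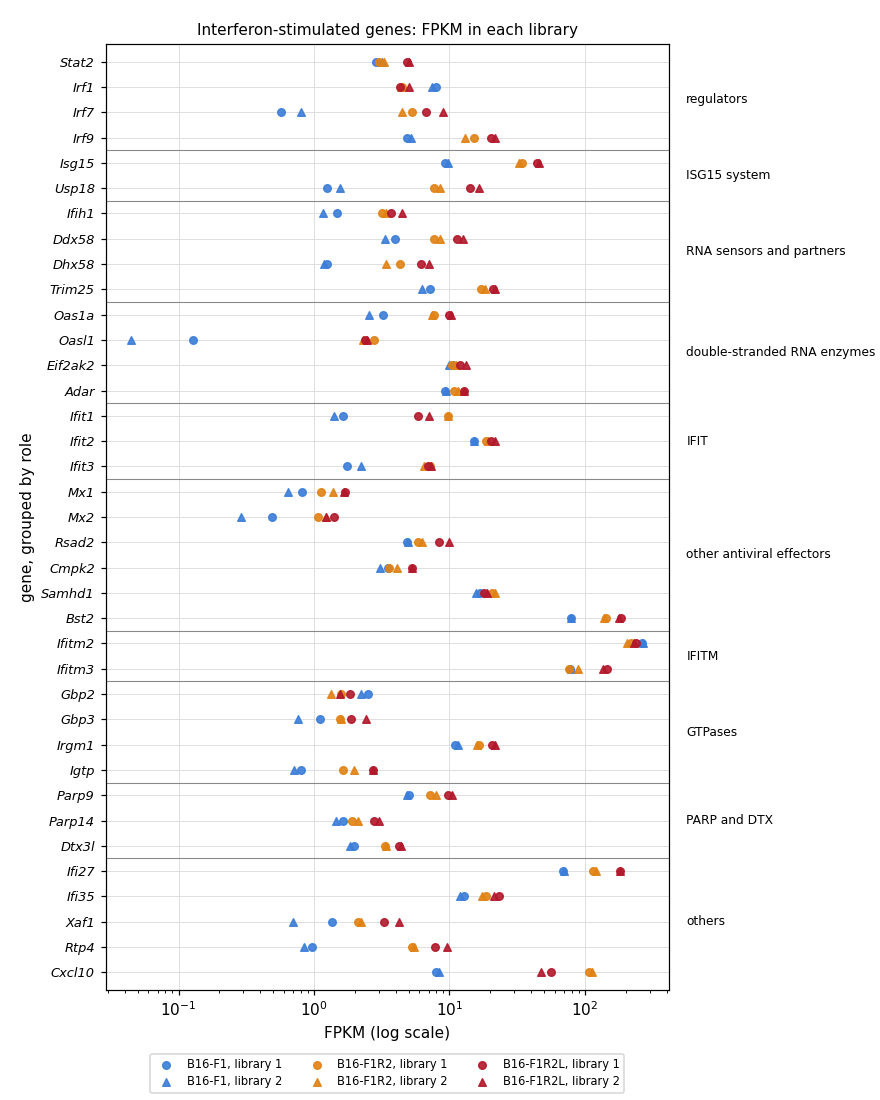
FPKM (horizontal axis, log scale) of the 37 tested members in each of the 6 libraries, grouped by role (vertical axis). Circles and triangles are the 2 libraries of a line. Levels run from 0.0447 FPKM for Oasl1 in a B16-F1 library to 269 for Ifitm2 in another. The lung line points lie farthest right for most genes. Cxcl10, Ifit1 and Samhd1 are highest in the lymph node line without overlap, and Irf1, Gbp2 and Ifitm2 in B16-F1.

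The members were then split by the response element core. Of the 13 with the core, 10 were higher and 2 lower in the lymph node line than in B16-F1, with a median log2 fold change of 0.83, and of the 16 tested members whose promoter lacked it 12 were higher and 1 lower, with a median of 0.66. The 8 tested members with no promoter sequence held 7 higher genes, with a median of 1.07. Over all tested genes 28.2% were higher and 27.2% lower. Both members that fell from the lymph node line to the lung line, Cxcl10 and Ifit1, held the core, as did 7 of the 13 that rose and had promoter sequence. The difference between these groups was not tested.

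The upstream part of the pathway was read from lists of the ligands, receptors, sensors and restraints. No ligand RNA was seen at a level that could be tested: of 11 interferon genes named, 10 were listed at 0 in all 6 libraries and Ifna13 reached 0.122 FPKM in 1 B16-F1 library. Of 10 genes for receptor subunits, kinases and Stat3, 2 were higher and 7 lower in the lymph node line than in B16-F1, where 28.2% and 27.2% of all tested genes were. In the lung line 2 (20%) were higher and 3 (30%) lower, near the 29.5% and 27.1% of all tested genes. Ifnar1 stood at 17.2 and 18.1 FPKM in B16-F1, 11.5 and 11.7 in the lymph node line, and 12.0 and 12.6 in the lung line. It fell by 0.60 (SE 0.06, adjusted p = 2.8e-04 in limma) and by 0.52 (SE 0.06) on the log2 scale, and Ifnar2 and Ifngr1 were lower in the lymph node line with log2 fold changes of -0.36 and -0.24. Ifngr2, a subunit of the interferon gamma receptor, stood at 44.9 and 43.8, 25.0 and 28.0, and 29.8 and 27.5 FPKM in the same order, a log2 fold change of -0.74 in the lymph node line (SE 0.07). Il10rb, shared by the receptors of interferon lambda and IL-10, stood at 84.3 and 79.1 FPKM in B16-F1, 42.1 and 37.7 in the lymph node line, and 49.7 and 50.6 in the lung line, and its log2 fold change in the lymph node line was -1.03 (SE 0.06). Its partner Ifnlr1 rose from 0.366 and 0.424 FPKM in B16-F1 up to 1.43 and 1.48 in the lymph node line and 2.10 and 2.08 in the lung line, a log2 fold change of 1.65 and 2.15 (SE 0.16). It was under 1 FPKM in B16-F1, so it too passed the filter through the other lines. Between the metastatic lines Il10rb was the 1 gene of this list that passed the test, higher in the lung line by a log2 fold change of 0.33 (SE 0.06, adjusted p = 0.018 in limma), and 10% of the list is near the 12.1% of all tested genes.

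**Figure D3:**
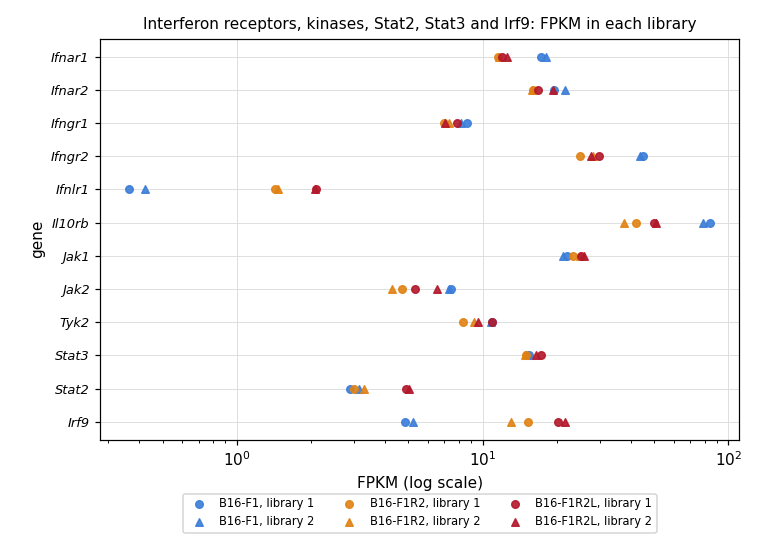
FPKM (horizontal axis, log scale) of interferon receptor subunits, JAK kinases and Stat3, with the members Stat2 and Irf9 (vertical axis), in each of the 6 libraries. Ifnar1, Ifngr2 and Il10rb are highest in B16-F1, whereas Ifnlr1 and Irf9 are in the order B16-F1, the lymph node line, the lung line without overlap.

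Of 18 genes of nucleic acid sensing, 14 were tested, and 3 were higher and 5 lower in the lymph node line than in B16-F1, 1 higher and 5 lower in the lung line. The 21.4% higher and 35.7% lower in the lymph node line lay near the 28.2% and 27.2% of all tested genes, and in the lung line they were 7.14% and 35.7%, against 29.5% and 27.1%. Ticam1 and Trex1, the adaptor of TLR3 and a DNA exonuclease, had log2 fold changes of -0.69 and -0.50 in the lymph node line, and Tlr3, a sensor of double-stranded RNA, of 0.44. Between the metastatic lines 2 were higher, Tlr3 (0.36) and the kinase Ikbke (0.34), and 3 lower, among them Tmem173, which encodes STING (-0.45), against 12.1% higher and 10.5% lower of all tested genes. Of 7 negative regulators, 1 was higher and 3 lower in the lymph node line, and 1 higher and 2 lower in the lung line, counts too small to set against those shares. The phosphatase gene Ptpn6 had a log2 fold change of 0.89 in the lymph node line, the JAK-STAT inhibitor Socs3 of -0.73 and the repressor Irf2 of -0.33.

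A wider list of 59 other interferon-induced genes had 55 in the table and 35 tested. Of these, 26 were higher and 4 lower in the lymph node line than in B16-F1 (28.2% and 27.2% of all genes), 28 were higher and 3 lower in the lung line (29.5% and 27.1%), and 14 were higher and 2 lower in the lung line than in the lymph node line (12.1% and 10.5%). Their median log2 fold changes were 0.96, 1.42 and 0.36. Here too the filter bears on the counts against B16-F1, since 14 of the 35 stayed under 1 FPKM in both B16-F1 libraries and Isg20 in 1 of them. Of the 20 at 1 FPKM or above in both, 11 were higher and 4 lower in the lymph node line, with a median of 0.30, and 13 were higher and 3 lower in the lung line, with a median of 0.59. These are 55% and 20%, and 65% and 15%, against 24.6% and 29.6%, and 25.5% and 29.5%, of the 10465 genes at that level. Neither Apol9a nor Epsti1 had a value above 0 in B16-F1, and they stood at 3.23 and 2.74 and at 2.47 and 2.67 FPKM in the lymph node line. Psmb8, a subunit of the immunoproteasome, stood at 0.0862 and 0.270 FPKM in B16-F1, against 6.65 and 6.82 in the lymph node line. Apol9a, Epsti1 and Psmb8 are among the 14 that passed the filter only through the other lines. The 4 genes lower in the lymph node line were Mov10, Daxx, Pml and Zc3hav1, with log2 fold changes of -0.44, -0.28, -0.23 and -0.22. Among the genes called between the metastatic lines, the largest differences were those of Mndal, Ifi203 and Irgm2, with log2 fold changes of 1.09, 1.00 and 0.97.

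**Figure D4:**
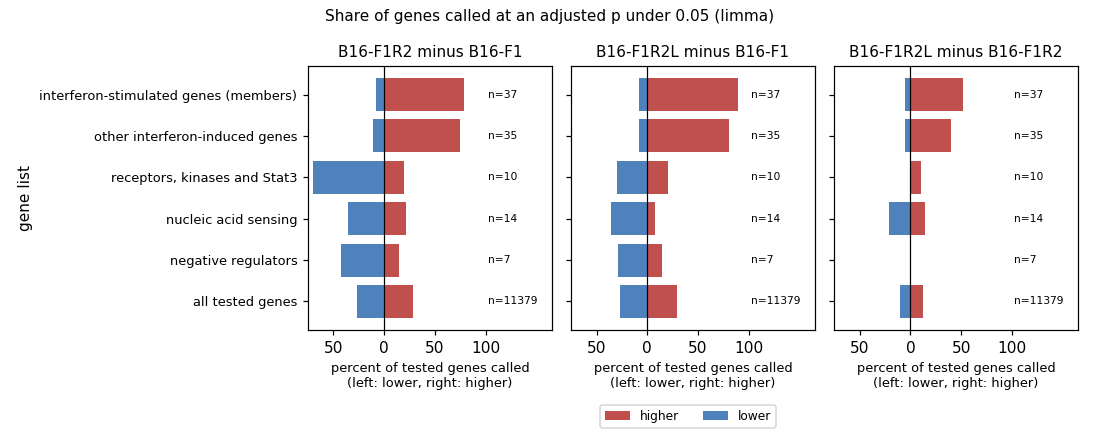
Percent of tested genes (horizontal axis, lower to the left and higher to the right of 0) called at an adjusted p under 0.05 in limma for the members, the pathway lists and all 11379 tested genes (vertical axis), in the 3 comparisons. The members reach 78.4%, 89.2% and 51.4% higher, and the receptors, kinases and Stat3 have 70% lower in the lymph node line against B16-F1.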

How the data were processed

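Cultured cells of the 3 lines were sequenced in 6 libraries. Per the labels and the study's methods, polyadenylated RNA was prepared with a stranded kit, read from a single end in 50 bases, and aligned with TopHat 2.0.10 and Bowtie 1.0.0 to mm9, with up to 20 positions allowed per read. The authors deposited FPKM for all genes in 1 table, with replicates not pooled. Cuffnorm is named in the submitters' processing notes without a role, the authors used DESeq2 for their own comparisons, which are not used here, and the annotation and the strand setting of the counting are not given in the sources used here. No read totals were given, so depth was estimated from the lowest FPKM of 2785 genes with 1 transcript, and no counting intervals were made. Genes listed at 0 were kept as such.

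A gene was tested if 2 or more libraries reached 1 FPKM, and log2(FPKM + 0.1) was fitted by limma 3.58.1 (R 4.3.3, eBayes with a trend) over all 6 libraries, without a replicate block, with Benjamini-Hochberg adjustment over all tested genes and a threshold of 0.05. With 2 libraries against 2, an exact two-sided permutation test of a single gene cannot go below 0.333, so the calls rest on the pooled spread. Python 3.11.15 and pandas 2.3.3 served for the other steps. The fit was tested on simulated data. The members and lists were chosen with earlier results of these data known. Every tested member is named with its FPKM. SE and adjusted p are given where the absolute log2 fold change reached 1 or was the largest of its role group over all comparisons. Some other values are given with a p as well, among them those near the threshold or whose call changed. From each pathway list the 3 called genes with the largest changes are named, together with the receptor subunits. From the lists, 2 genes are not reported here and were left out of the counts and sums. Positions came from the mm9 annotation by symbol, for 40 of 41 members. Alternatives were pseudocounts of 1 and 0.01, no filter or 5 FPKM, rescaling to a sum of 1000000, median ratio scaling, quantile normalization, no trend, a replicate block, only the 4 libraries compared, each library left out, and a log2 fold change of 1 as the minimum.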

Additional observations from a re-analysis of the deposited data

How the results depend on the processing

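Over the alternatives for the 37 tested members, 551 of 581 values kept their direction and side of the threshold in the lymph node line against B16-F1, 560 in the lung line against B16-F1 and 484 in the lung line against the lymph node line. The smallest comparison was the least stable. With each library left out in turn, the counts of higher members ran from 24 to 29, from 32 to 33 and from 4 to 18 in these comparisons, and those of lower members from 2 to 3, from 1 to 2 and from 1 to 2. In the same fits the share of all genes called higher ran from 22.6% to 28.3%, from 23.5% to 28.6% and from 2.8% to 9.34%, and that called lower from 20.2% to 28.2%, from 19.2% to 26.5% and from 1.37% to 9.22%. Fewer libraries enter these fits, and where an arm kept 1 library that library was assumed to vary like the others. With a minimum log2 fold change of 1, limma gave 17 higher and 0 lower, 23 higher and 0 lower, and 0 higher and 1 lower members, where 2.88% and 2.28% of all genes were lower and 1.02% higher in the place of the zeros, and no unadjusted p bears on these zeros, since no member changed by that much in the direction concerned. Rescaling each library to a sum of 1000000 moved the median log2 fold change of all genes to 0.13 in both comparisons of the lung line, and left 1 lower member in each (17.6% and 4.08% of all genes). The median of the members minus that of all genes was then 1.35 against B16-F1 and 0.37 against the lymph node line, and 1.19 and 0.38 before. With no filter, 1 member was lower in the lung line than in the lymph node line. The cause was not tested in these cases.

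The replicate numbers did not pair the libraries: the correlations of the deviations of same-numbered libraries were 0.0519, -0.102 and 0.0789. With a replicate block, 29 members were higher and 3 lower in the lymph node line than in B16-F1 (27.6% and 26.7% of all genes), 33 and 3 in the lung line (29% and 26.6%), and 14 and 2 between the metastatic lines (10.7% and 9.7%), where Cmpk2, Dtx3l, Igtp, Oas1a and Parp14 were no longer called.

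Values that changed sign were small. Against B16-F1, Stat2 in the lymph node line was -0.13 after quantile normalization and ran from -0.0032 to 0.12 with each library left out, and Ifitm3 ran from -0.036 to 0.18. Ifitm2 in the lung line was 0.010 after quantile normalization. Between the metastatic lines, quantile normalization gave -0.035 for Ifit3, -0.063 for Irf1 and -0.074 for Mx2, and rescaling gave 0.052 for Oasl1. With each library left out, Ifit3 ran from -0.014 to 0.12, Irf1 from -0.048 to 0.18 and Oasl1 from -0.18 to 0.077. The FPKM hold no read counts, so the precision of members near single reads, such as Oasl1 in B16-F1, is limited by depth.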
